A study of Mus musculus with 4 samples.

Results

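The members described here are the widest Pcbp1 peaks of naive mouse embryonic stem cells. They were chosen by width alone: they are the peaks of the deposited Naive list on chromosomes 1-19 and X that are 800 bp or wider, and 808 of the 12046 peaks on those chromosomes (6.71%) met this rule. The other 11238 peaks, from 222 to 799 bp wide, are called narrower peaks below. Width came from the same library as the fold enrichment and significance of each peak, so all Naive values of the members are descriptions.

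Pcbp1 was profiled by chromatin immunoprecipitation sequencing (ChIP-seq), in which DNA fragments bound to a protein are pulled down with an antibody and sequenced. The cells were the E14 Tg2a mouse embryonic stem cell line. Naive cells were kept for 3 passages without serum in N2B27 medium with LIF, the MEK inhibitor PD0325901 (1 uM) and the GSK3β inhibitor CHIR99021 (3 uM). Epiblast-like cells (EpiLC, a primed state) were derived from such cells with bFGF (12 ng/ml), Activin A (20 ng/ml) and KOSR (1%) for 48 hours. For each condition there was 1 library of Pcbp1 ChIP, made with 12 ug of antibody, and 1 of input chromatin. With 1 library per condition no value has a replicate error and no test between conditions was possible. A peak missing from a list does not show that Pcbp1 was absent there.

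Pcbp1, also called hnRNP E1, is a KH-domain protein that binds C-rich stretches of single-stranded RNA and DNA and takes part in splicing, mRNA stability and translation. Naive cells hold a network of transcription factors such as Nanog, Klf4 and Esrrb that is taken down when cells become primed, while Sox2 and other core factors stay in use. The width of a called peak is the stretch over which fragment coverage stays above the caller's threshold, and neighbouring sites can merge into a single wide peak.

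The start of a gene lay inside many wide peaks, and 6 such promoters are shown as examples of sequence inside wide intervals. They come from the 3 widest peaks found again in EpiLC and the 3 widest not found again that hold all 250 bases before a RefSeq gene start (GRCm38.p6), with those bases in no annotated gene. This choice was made after the peak values were seen. The summit lay inside the printed bases at Vdac1 alone: it was 1370 bp upstream of the start at Tdgf1, 1236 bp upstream at Ywhag and 1, 238 and 251 bp downstream at Rpl4, Cks2 and Cd2bp2. Each runs 5′ to 3′ towards the start, with the C-rich motif CCCNCCC on either strand in capitals and overlapping matches merged. The 3 promoters with an EpiLC peak belong to Ywhag, a 14-3-3 adaptor protein, Rpl4, a protein of the large ribosomal subunit, and Vdac1, a channel of the outer mitochondrial membrane.
Ywhag chr5:135934642-135934891 minus strand: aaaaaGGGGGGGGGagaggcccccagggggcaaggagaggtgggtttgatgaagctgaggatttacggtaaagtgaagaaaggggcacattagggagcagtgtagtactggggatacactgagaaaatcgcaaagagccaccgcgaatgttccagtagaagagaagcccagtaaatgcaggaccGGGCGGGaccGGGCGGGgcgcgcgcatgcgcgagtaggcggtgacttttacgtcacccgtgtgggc
Rpl4 chr9:64173137-64173386 plus strand: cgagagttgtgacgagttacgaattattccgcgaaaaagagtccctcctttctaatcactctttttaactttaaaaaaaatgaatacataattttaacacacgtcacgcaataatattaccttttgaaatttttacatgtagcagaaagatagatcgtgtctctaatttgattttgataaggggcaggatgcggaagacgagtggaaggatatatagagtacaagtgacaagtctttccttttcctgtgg
Vdac1 chr11:52360601-52360850 plus strand: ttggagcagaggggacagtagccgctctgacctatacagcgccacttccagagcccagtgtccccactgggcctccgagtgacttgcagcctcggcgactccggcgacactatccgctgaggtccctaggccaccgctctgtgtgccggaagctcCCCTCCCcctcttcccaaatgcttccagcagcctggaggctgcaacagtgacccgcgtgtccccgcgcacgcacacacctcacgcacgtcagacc
The 3 promoters without an EpiLC peak belong to Tdgf1 (Cripto), a co-receptor for Nodal, Cks2, a subunit of cyclin-dependent kinase complexes, and Cd2bp2, a splicing-related protein.
Tdgf1 chr9:110946159-110946408 minus strand: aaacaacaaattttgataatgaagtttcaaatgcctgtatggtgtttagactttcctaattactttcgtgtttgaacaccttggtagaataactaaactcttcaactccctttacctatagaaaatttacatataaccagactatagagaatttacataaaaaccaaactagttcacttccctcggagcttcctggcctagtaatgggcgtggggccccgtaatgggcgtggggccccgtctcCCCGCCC
Cks2 chr13:51644982-51645231 plus strand: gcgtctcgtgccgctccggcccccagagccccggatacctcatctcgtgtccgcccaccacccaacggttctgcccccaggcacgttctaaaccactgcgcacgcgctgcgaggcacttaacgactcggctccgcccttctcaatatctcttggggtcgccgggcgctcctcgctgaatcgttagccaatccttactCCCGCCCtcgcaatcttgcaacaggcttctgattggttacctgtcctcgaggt
Cd2bp2 chr7:127196078-127196327 minus strand: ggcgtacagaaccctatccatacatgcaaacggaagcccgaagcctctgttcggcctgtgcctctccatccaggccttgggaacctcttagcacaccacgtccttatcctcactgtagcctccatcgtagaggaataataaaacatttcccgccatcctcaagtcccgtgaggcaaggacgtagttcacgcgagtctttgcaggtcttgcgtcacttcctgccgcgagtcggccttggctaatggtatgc
The Naive and EpiLC folds of the first 3 peaks were 9.19 and 3.58 at Ywhag, 5.81 and 2.10 at Rpl4, and 5.29 and 2.58 at Vdac1. The Naive folds of the others were 9.19 at Tdgf1, 8.15 at Cks2 and 6.01 at Cd2bp2. Both sets held promoters with and without the motif: Rpl4 and Cd2bp2 had no match, and the others had at least 1. The motif was present in 55.5% of 21045 windows of 300 bases around the starts of all protein-coding genes in the table. A match is a description and not a binding site.

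Promoter windows were found for 312 of the 396 protein-coding genes with a wide peak at a gene end (78.8%). That is under the minimum of 80% for a comparison of base content, so that comparison is void and none is given. The table has no entry for chromosome 18, and without that chromosome the match was 312 of 390 genes (80.0%).

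Wide peaks ranged from 800 to 4844 bp, with a median of 965 bp and quartiles of 870 and 1127 bp. Their median fold enrichment at the summit, the pileup over the caller's background, was 5.89 (quartiles 4.80 and 7.92), against 4.40 in narrower peaks. The median summit pileup was 34 fragments against 24. Width and fold moved together over all 12046 peaks (Spearman's rho 0.387, a description over peaks of 1 library) and less among the 808 wide peaks (0.122). The rule therefore also favours strong peaks, and the EpiLC and gene-end shares below are also given within bands of fold. At the edge of the rule, the 3 narrowest members, each 800 bp, lay nearest Col13a1 (fold 5.37), nearest Ly86 (9.97) and at the ends of Qtrt2 and Ccdc191 (5.40). The 3 widest peaks outside, each 799 bp, lay nearest Sult3a2 (5.41), in Sall4 (5.73) and in Ccdc77 (3.62). There were 35 peaks from 790 to 799 bp and 35 from 800 to 809 bp, so the rule cuts a continuous range.

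A small set of members stood on a high local background. In 26 wide peaks the caller's background was 5 or more times the genome-wide value, a limit chosen after seeing the data. Their median fold was 2.10 and their background was 5.14 to 55.7 times the genome-wide value. Of these, 12 formed an unbroken run at the start of chromosome 9 (chr9:3000066-3035447), which includes the widest peak of all (4844 bp, fold 1.99). None of the 26 had its summit at a gene end, and 7 overlapped an EpiLC peak. Of the 10 widest peaks, 6 were of this kind. Without them the share of wide peaks found again in EpiLC was 27.1% (212 of 782), against 12.1% of the narrower peaks.

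**Figure D1:**
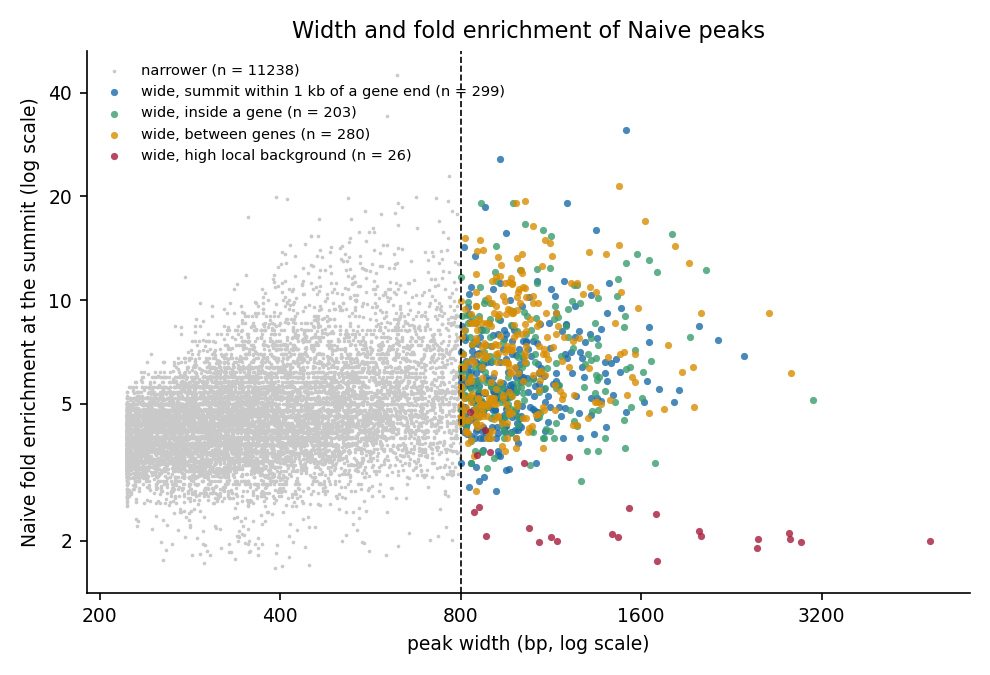
Each point is a Naive peak, with its width in bp on the x axis and its fold enrichment at the summit on the y axis, both on log scales. The dashed line marks 800 bp, grey points are narrower peaks and coloured points are wide peaks by place. The 26 wide peaks on a high local background lie at low folds (median 2.10) and include the widest peak.

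The other 4 of the 10 widest peaks stood on an ordinary background. Ppp1r10, a regulatory subunit of protein phosphatase 1 in the nucleus, held the widest in its body (chr17:35915809-35918907, 3099 bp), with a Naive fold of 5.13 and an EpiLC fold of 8.81. The next lay 156184 bp from its nearest gene, Nup35 (chr2:80814451-80817295, 2845 bp), at 6.14 in Naive and 3.07 in EpiLC. The 2613 bp peak over the start of Tdgf1 (chr9:110945930-110948542) had a Naive fold of 9.19 and no EpiLC peak. Rpl3, a protein of the large ribosomal subunit, had a 2377 bp peak at 6.86 in Naive and 3.64 in EpiLC. EpiLC fold exceeded Naive fold at Ppp1r10 alone among these 4.

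Of the 10 wide peaks with the highest Naive fold, 6 had an EpiLC peak, against 27.1% of all wide peaks and 13.4% of all Naive peaks. Zfp143, a zinc finger factor that acts at promoters, led with a Naive fold of 31.2 (95% Poisson interval 26.5 to 36.5, counting error only) and an EpiLC fold of 11.7 (10.2 to 13.3). Zfp37, also a zinc finger gene, followed at 25.8 and 7.95. Kmt2a, a histone H3K4 methyltransferase, stood at 18.6 and 11.4. Others lay away from gene ends: a peak 8226 bp from Loxl1 had folds of 21.4 and 3.95, and a peak 4768 bp from Jam2 had 19.4 in Naive and no EpiLC peak. These peaks were strong in Naive by choice, and their EpiLC folds ranged from no call to 11.7.

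In the EpiLC list, which the rule did not use, 219 of the 808 wide peaks had an overlapping peak (at least 1 bp), which is 27.1% (95% exact binomial interval 24.1 to 30.3, counting error only). Over all Naive peaks the share was 13.4%, and among narrower peaks 12.5% (1401 of 11238; 11.9 to 13.1). A wider interval overlaps another more easily, so the summits were also compared: an EpiLC summit lay within 250 bp of the Naive summit for 21.3% of wide peaks (172; 18.5 to 24.3) against 11.6% of narrower ones (12.2% over all). Weighting the narrower peaks to the same 5 bands of fold raised their share to 16.8% by overlap and 16.1% by summit. The difference was thus smaller once both width and fold were allowed for, and it remained outside the interval of the wide peaks.

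The share rose along the range of widths. It was 7.85% below 300 bp, 11.3% from 300 to 400 bp, 16.0% from 400 to 600 bp and 21.9% from 600 to 800 bp. Among members it was 22.9% (108 of 472) from 800 to 1000 bp, 30.3% (84 of 277) from 1000 to 1500 bp and 45.8% (27 of 59) from 1500 bp. By summits the last 3 values were 18.9%, 24.2% and 27.1%. The rise at 1000 bp was thus also seen by summits, and the rise at 1500 bp was mostly in the overlap of wide intervals. No step is seen at 800 bp. Within each of the 5 fold bands the overlap was higher for wide peaks: 23.5% against 10.3% in the lowest band, 18.9% against 8.56%, 18.7% against 10.3%, 27.8% against 13.5%, and 30.4% against 21.7% in the highest. In the highest band the wide peaks also had a higher median fold (7.79 against 6.94), so fold was not fully matched there. By summits the shares from the lowest to the highest band were 9.80% against 9.41%, 13.2% against 7.46%, 11.2% against 9.41%, 20.5% against 12.3%, and 26.6% against 21.3%. In the lowest band the difference by overlap was thus not seen by summits. That band has 51 wide peaks with folds up to 3.67. They include most of the 26 wide peaks of high background, whose upper quartile of fold was 2.50.

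EpiLC folds at the shared wide peaks were no higher than elsewhere. Their median EpiLC fold was 3.32 (quartiles 2.79 and 3.88), against 3.37 at shared narrower peaks and 3.43 over all 3432 EpiLC peaks on these chromosomes. Their EpiLC peaks were wider, with a median of 412 bp against 328 bp, but covered a median of 42.8% of the wide Naive peak. The median distance between the summits was 67 bp. A single EpiLC peak overlapped 191 of the wide peaks, 2 EpiLC peaks overlapped 26 and 3 overlapped 2.

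An EpiLC peak that was itself 800 bp or wider lay over 3.59% of wide peaks (29 of 808) and 0.240% of narrower peaks (27 of 11238). The EpiLC list held 62 such peaks, of which 29 overlapped a wide Naive peak, 23 overlapped narrower Naive peaks alone and 10 overlapped none. The widest EpiLC partners lay at Arid1a, a subunit of the BAF chromatin remodelling complex (1436 bp), Eef1a1, the elongation factor that brings tRNA to the ribosome (1360 bp), Brd2, a reader of acetylated histones (1302 bp), and Ppp1r10 (1288 bp). Eef2, the ribosomal translocase (1283 bp), a peak between genes nearest Phactr4 (1261 bp) and Rpl13a (1202 bp) followed.

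Some wide Naive peaks had a higher fold in EpiLC. The Naive fold of Spaca6 was 5.60 (3.76 to 8.05), and its EpiLC fold was 11.0 (8.96 to 13.5). Sntb1, a syntrophin, had 5.58 (3.75 to 8.03) and 8.78 (7.15 to 10.7), and Rsf1, a chromatin remodelling factor, stood at 4.38 (3.04 to 6.13) and 7.77 (6.43 to 9.31). The counting intervals of Spaca6 and Rsf1 do not overlap between the libraries and those of Sntb1 do. This is not a test: these peaks were named for a high EpiLC fold. The intervals also leave out the background, which differed between the libraries (4.004 and 7.43 genome-wide). At Cltc, the clathrin heavy chain gene, the order was the other way, with 11.3 in Naive and 7.30 in EpiLC.

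Wide peaks lay at gene ends somewhat more often than narrower ones. A summit was counted at a gene end when it lay within 1 kb of either annotated end of a protein-coding gene, since the gene table holds no strand. This was so for 299 wide peaks (37.0%; 33.7 to 40.4) and 31.5% of narrower peaks, with 31.9% over all. From the lowest to the highest fold band the shares were 25.5% against 29.2%, 45.3% against 33.3%, 43.9% against 34.1%, 45.5% against 34.6%, and 32.1% against 25.5%. The order was reversed in the lowest band, which ends at a fold of 3.67. Most of the 26 wide peaks of high background fall there (upper quartile of fold 2.50), and none of them lay at a gene end. The bands were not recomputed without such peaks. Over all folds, the gene-end shares without them were 38.2% of wide and 31.9% of narrower peaks. Among members of 1500 bp or wider the share was 20.3% (12 of 59), and these 59 also include peaks of high background. A further 205 wide summits lay inside a gene and 304 between genes. The EpiLC share differed by place: 43.5% of the wide peaks at gene ends (130 of 299; 37.8 to 49.3) overlapped an EpiLC peak, against 16.4% of narrower peaks there. Inside genes the shares were 17.6% (36 of 205; 12.6 to 23.5) and 9.58%, and between genes 17.4% (53 of 304; 13.3 to 22.2) and 11.5%.

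By summits the contrast between wide and narrower peaks stood at gene ends (34.8% against 15.0%) and inside genes (15.1% against 9.09%). Between genes the summit shares were 12.2% (8.72 to 16.4) and 10.6%, which lies within the counting interval. The larger overlap of wide peaks between genes was therefore not seen when width played no part.

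**Figure D2:**
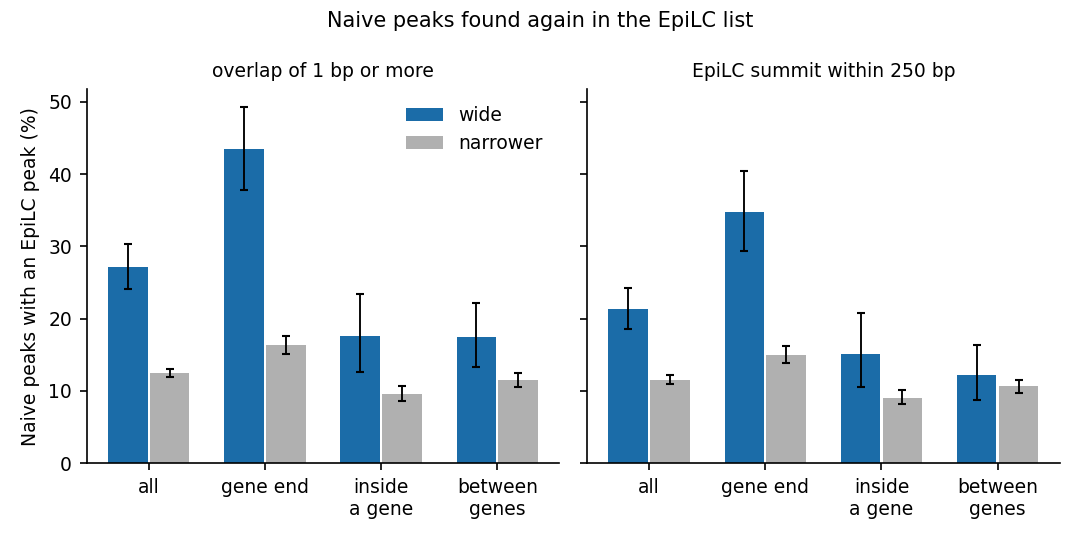
Bars give the percentage of Naive peaks with an EpiLC peak, by overlap of at least 1 bp on the left and by summits within 250 bp on the right, for wide (blue) and narrower (grey) peaks, over all peaks and by place. Error bars are 95% exact binomial intervals (counting error only). At gene ends 43.5% of wide peaks overlapped an EpiLC peak, and between genes the summit shares of 12.2% and 10.6% lay close together.

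A gene start in the promoter table lay inside 29.9% of wide peaks (227 of 760, without chromosome 18 and without peaks of high background) and 13.3% of narrower ones, as a longer interval would hold more starts. Of those 227, 19.8% (45; 14.8 to 25.6) held starts on both strands, against 9.73% of narrower peaks with a start. Where starts were on 1 strand, the wide peak reached a median of 496 bp upstream and 486 bp downstream, and its summit lay a median of 36 bp downstream. A median of 48.7% of the width lay downstream at wide peaks and 57.3% at narrower ones. The summit of the narrower peaks lay a median of 48 bp downstream. At ribosomal protein genes the interval was shifted downstream of the start. In 23 such peaks a median of 72.4% of the width lay downstream, and 18 of the 23 summits did. At 7 histone peaks the median was 84.2%, with all 7 summits downstream. Not all of these lay in the gene. At H4c9, H2ac13 and H2ac19 the summit was 750, 652 and 721 bp from the start. These genes are 403, 448 and 596 bp long, so the summits lay past their far ends. These positions were looked at after the lists had been counted.

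Wide peaks were then counted at 14 gene lists. A gene was assigned a wide peak when its end lay within 1 kb of the summit, or else when its body held the summit or it was the nearest gene. By this measure 3.84% of 21631 protein-coding genes were assigned a wide peak, and 1.83% had one at a gene end. The lists with the highest shares were naive pluripotency genes (11 of 24), ribosomal protein genes (35 of 84), core pluripotency genes (6 of 17) and replication-dependent histone genes (16 of 64). With gene ends alone the counts were 4, 32, 3 and 16 genes in the same order, so the pluripotency lists rested mostly on peaks away from gene ends. Narrower peaks were also common there: they lay at the ends of 10, 47, 7 and 47 genes, against 3895 of 21631 protein-coding genes. Wide peaks made up 17.9%, 28.2%, 14.3% and 19.6% of the Naive peaks assigned to these lists, against 6.71% of all Naive peaks. For the counts found again below, the shares over all wide and narrower peaks were 27.1% and 12.5%. Shares were lowest for amino acid transport (1 of 20) and for serine, glycine and one-carbon genes (1 of 28), which were near the share of all genes.

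**Figure D3:**
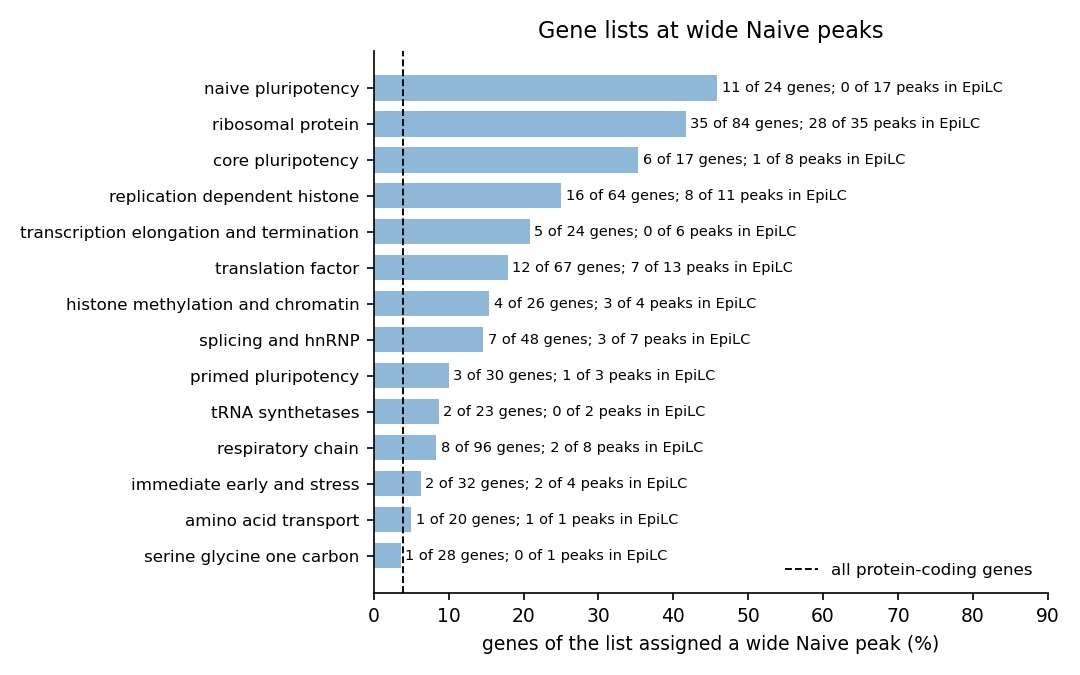
Bars give the percentage of each list's genes that were assigned a wide Naive peak, and the dashed line gives all protein-coding genes (3.84%). Beside each bar stand the number of genes and how many of the list's wide peaks overlapped an EpiLC peak, such as 28 of 35 at ribosomal protein genes and 0 of 17 at naive pluripotency genes. Over all wide peaks that share was 27.1%.

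Ribosomal protein genes encode the protein part of the ribosome and are mostly short and highly transcribed. Their 35 wide peaks had a median Naive fold of 5.83 (3.63 to 11.2), close to that of all wide peaks, and 32 genes carried theirs at a gene end. An EpiLC peak overlapped 28 of the 35, or 80.0% (63.1 to 91.6), and 33 of 89 narrower peaks of the same genes, or 37.1%. The EpiLC folds of the 28 ranged from 1.98 to 4.16 with a median of 3.17, near the 3.32 of all shared wide peaks. The peak at Rps27a and Clhc1 had the highest Naive fold of the list, 11.2 (8.48 to 14.5), with 3.16 (2.42 to 4.05) in EpiLC. Rps2 had nearly the same fold in both, 3.63 and 3.49. Wide peaks at Rpl5, Rpl7, Rpl14, Rpl34, Rpl37 (beside Card6), Rps20 and Rps27l had no EpiLC peak. A further wide peak held a start of Rpl18 but was assigned to Sphk2, whose annotated end lay within 1 kb of its summit, and is not among the 35. Its Naive fold was 4.73 and it had no EpiLC peak.

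Other genes of translation had fewer wide peaks. Translation factors had 12 of 67 genes with a wide peak, and 7 of their 13 peaks were found again, among them Eef1a1 (8.13 in Naive, 4.83 in EpiLC), Eef2 (5.81 and 4.47) and Eif4a2, an RNA helicase of initiation (10.3 and 4.76). The list of aminoacyl-tRNA synthetases and associated proteins had 2 of 23 genes, at Aars (4.45) and at Aimp2 and Pms2 (3.22), neither with an EpiLC peak. Aimp2 is not itself a synthetase. A further wide peak (819 bp) held a start of Yars2, a synthetase gene not counted in the list, and had no EpiLC peak.

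Replication-dependent histone genes, small clustered genes used in S phase, had 11 wide peaks over 16 genes, since some peaks covered more than 1 gene end. An EpiLC peak overlapped 8 of the 11 and 24 of 45 narrower peaks. H4c14 stood highest in Naive at 11.2, with 3.22 in EpiLC, and the others had Naive folds of 2.79 to 6.78. Of the 6 genes that lay whole inside a wide peak, 5 were histone genes (H1f3, H2ac13, H2ac19, H3c8 and H4c9) and the sixth was Rpl41. Histone genes are near-identical copies, and no source used here states how reads were assigned among them, so values at single histone genes are uncertain.

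No wide peak of the naive pluripotency genes was found again in EpiLC. Their 17 wide peaks, assigned to 11 genes, had a median Naive fold of 6.90 (3.36 to 19.2). None overlapped an EpiLC peak (exact interval 0 to 19.5%), against 27.1% of all wide peaks. The interval counts neighbouring peaks of the same gene as separate. Of the 78 narrower peaks of these genes, 2 did (2.56%). The low share thus held for both widths and was not particular to wide peaks. The wide peaks lay mostly away from gene ends: 4 at ends, 7 inside genes and 6 between genes. Among all wide peaks, 17.6% inside genes and 17.4% between genes were found again, both within the interval of 0 to 19.5%, and 43.5% at gene ends.

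Klf4, a Kruppel-like transcription factor, had the strongest of them, 3 wide peaks at 62675, 51563 and 49569 bp from the gene. Their Naive folds were 13.6 (10.6 to 17.2), 19.2 (15.6 to 23.4) and 11.7 (8.94 to 14.9). Esrrb, an orphan nuclear receptor, held 3 in its body at 4.35, 8.85 and 8.56. Lifr, the receptor subunit for LIF, held 2 in its body at 4.58 and 8.99, and Tbx3, a T-box factor, 1 at 9.79. Nanog, a homeobox factor, had 1 over its start at 4.84 and 1 at 4902 bp from it at 6.90. The remaining wide peaks of the list were assigned to Fbxo15 (10.2), Nr5a2 (6.38), Tdh (4.60), Klf5 (4.34), Pecam1 (4.15, at 9018 bp from the gene) and Dppa5a (3.36), with Dppa5a the lowest of the list.

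**Figure D4:**
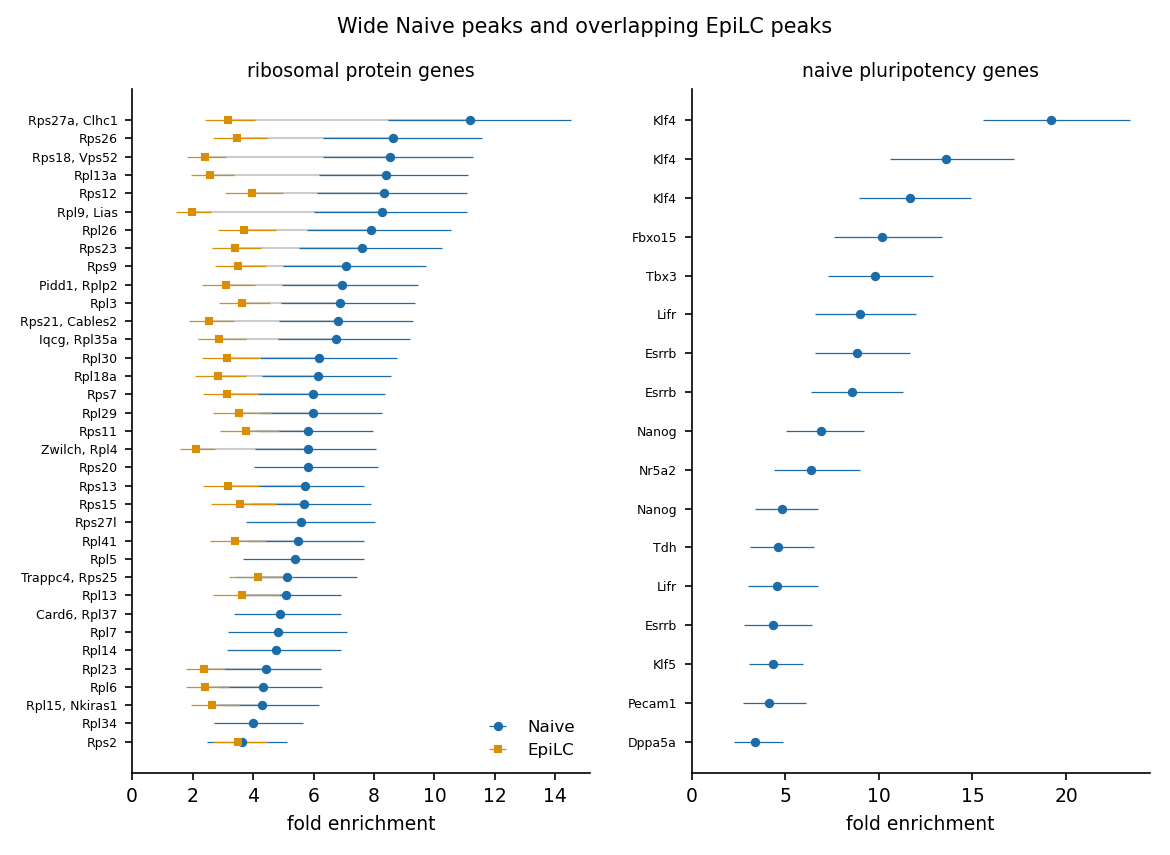
Points give the fold enrichment at the summit of each wide Naive peak (blue) and of the EpiLC peak that overlaps it (orange squares, where there is one), at ribosomal protein genes on the left and naive pluripotency genes on the right, with 95% Poisson intervals (counting error only) as horizontal lines. An EpiLC value is drawn for 28 of 35 peaks on the left and for none of 17 on the right.

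Core pluripotency genes, in use in both states, had 8 wide peaks of which 1 was found again, at Zscan10, a zinc finger factor of stem cells (8.17 in Naive, 4.09 in EpiLC). Sox2 had 3: at 1632 bp from the gene (5.92), and at 104423 and 105569 bp (15.0 and 14.0). Rif1, a telomere and replication-timing factor, had 1 at its end (16.0), and others were assigned to Tdgf1 (9.19) and Gdf3, a TGF-beta ligand (5.06). The last lay 5578 bp from Tet1, a 5-methylcytosine dioxygenase (4.98), with an snRNA gene within 500 bp of its summit. Among narrower peaks of this list 8 of 48 were found again (16.7%), so 1 of 8 wide peaks (12.5%; 0.316 to 52.7) had an interval that includes that share. Primed pluripotency genes had 3 of 30, and all 3 peaks lay between genes. They were nearest Lefty2, an inhibitor of Nodal (11.2 in Naive, 5.17 in EpiLC, 4203 bp from the gene), Otx2 (5.81) and Sall1 (7.47), the last 2 with no EpiLC peak.

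Within 120 kb of Klf4 there were 5 Naive peaks, 3 of them wide, and no EpiLC peak. Esrrb had 8 Naive peaks, 3 wide, and no EpiLC peak, and Lifr had 3 and 2 with none in EpiLC. Around Nanog there were 15 Naive peaks, 6 wide, and 1 EpiLC peak with a fold of 5.55. Around Sox2 there were 11 Naive peaks, 3 wide, and 3 EpiLC peaks, the highest at 7.16, and none of those 3 lay on a wide peak. The strongest peak was not always a wide one: at Esrrb a narrower peak reached 12.1 against 8.85, at Lifr 13.0 against 8.99 and at Tbx3 12.2 against 9.79. The window and the genes were chosen after seeing the data.

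**Figure D5:**
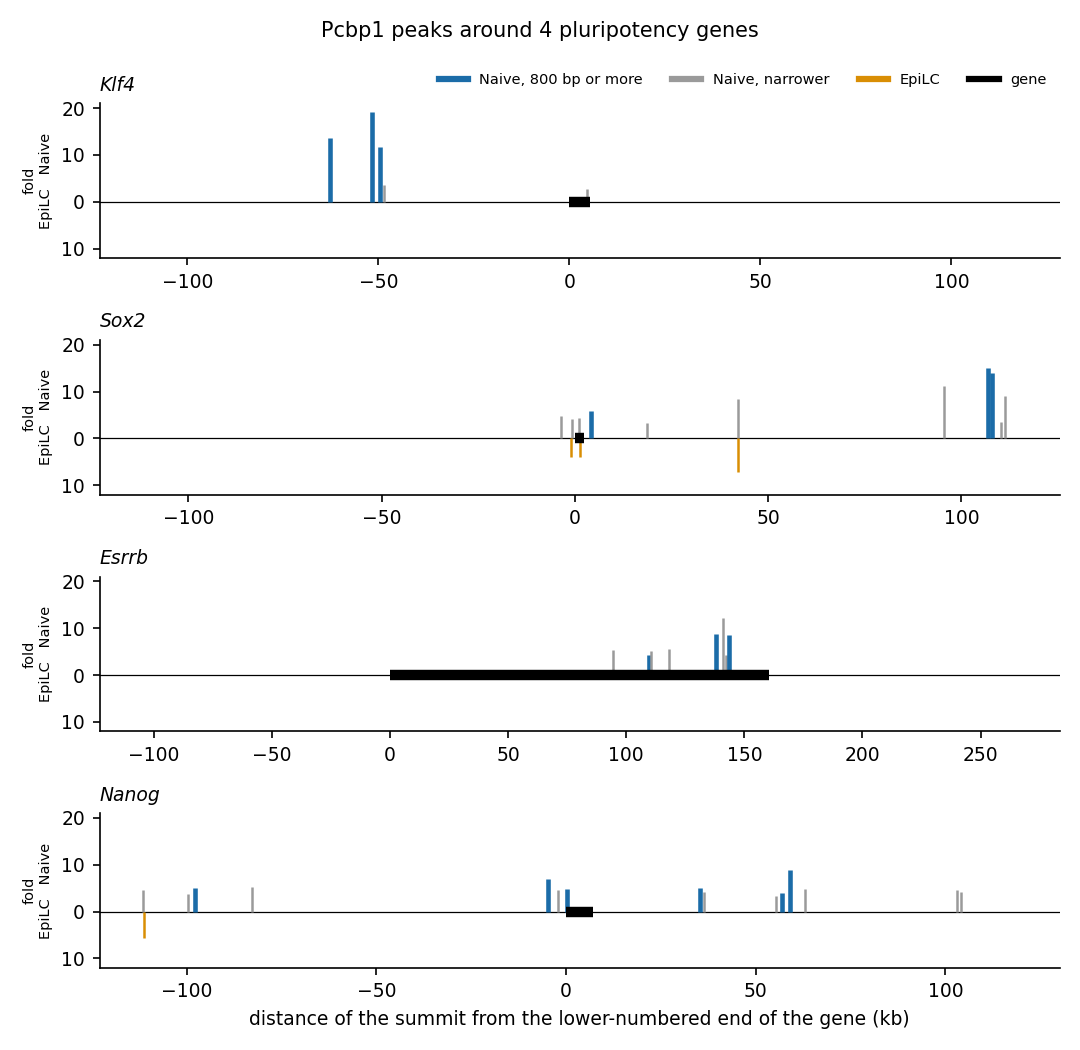
Vertical bars stand at peak summits, by distance in kb from the lower-numbered end of each gene (black bar), with Naive fold upward (blue for wide, grey for narrower peaks) and EpiLC fold downward (orange), for Klf4, Sox2, Esrrb and Nanog. No EpiLC peak is drawn around Klf4 or Esrrb, and the 3 around Sox2 lie apart from its wide peaks.

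The other lists held few wide peaks, and their counts stand beside a share of 27.1% of all wide peaks found again. Transcription elongation and termination genes had 5 of 24 genes and 6 peaks, none found again (0 to 45.9%, an interval that includes 27.1%). Among narrower peaks of this list 4 of 17 were found again. The 6 were at Hexim1, an inhibitor of P-TEFb (6.73), Ccnt1, a cyclin of P-TEFb (5.15), Xrn2, an exonuclease of termination (4.20), Cstf1 beside Aurka (6.15) and 2 in Aff1 (6.44 and 5.29). The wide Hexim1 peak is not the strongest at that gene, where a 762 bp Naive peak reached 15.1. Chromatin genes had 4 of 26, of which Kmt2a, Arid1a (7.58 in Naive, 4.09 in EpiLC) and Setd1a (5.93 and 3.87) were found again and Ezh2 (4.89) was not. Splicing and hnRNP genes had 7 of 48 with 3 peaks found again, at Hnrnpc, at Hnrnpa2b1 and at Snrnp70. Respiratory chain genes had 8 of 96 with 2 found again, at Atp5b (7.59 and 3.32) and Atp5l (8.77 and 3.51). Stress genes had 2 of 32 and 4 peaks, 1 of them at a gene end and 3 between genes. A peak nearest Hspa1b (4.92 and 3.87), with a snoRNA gene within 500 bp of its summit, was found again. So was 1 of the 3 assigned to Hspa8 (7.64 and 3.95). Slc3a2, which pairs with light chains to carry amino acids, had 7.07 and 3.05.

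Small structural RNA genes lay close to some wide summits. A snoRNA gene lay within 500 bp of 16 wide summits (1.98%; 1.14 to 3.20) and 26 narrower ones (0.231%), and 15 of the 16 were found again, against 11 of the 26. An snRNA gene lay within 500 bp of 16 wide summits (1.98%) and 30 narrower ones (0.267%), with 14 and 24 found again. Over all wide and narrower peaks the shares found again were 27.1% and 12.5%. Several snoRNAs are processed from introns of ribosomal protein and other host genes, so the counts overlap with the list above: Snora21 lay by the summit at Rpl23, Snord43 by that at Rpl3 and Snora78 by that at Rps2. The members labelled snRNA in the gene table included Rnu7, the RNA of histone mRNA processing (9.60 in Naive, 3.81 in EpiLC), and Rnu12 (7.34, no EpiLC peak). Rnu3b2 (9.79 and 3.84) has the same label, though it is a copy of U3, a small nucleolar RNA. The snRNA and snoRNA counts follow the labels of the gene table. Many snRNA genes have near-identical copies, so reads may be shared between them. No tRNA gene lay within 500 bp of a wide summit (0 to 0.456%). One did so for 13 narrower summits (0.116%), a share within that interval. An lncRNA gene lay within 500 bp for 15.0% of wide and 12.9% of narrower summits.

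Wide peaks made up 6.71% of Naive peaks over all 20 chromosomes, with the highest share on chromosome 17 (10.6%, 63 of 593, 3 of them on a high background) and the lowest on the X (2.65%, 5 of 189, 2 of them on a high background). With gaps of up to 12.5 kb, 109 wide peaks fell in 47 runs, and 4 runs held 3 or more without a peak of high background: those of Klf4, of Ranbp17 and Gabrp, of Hspa8 and of Epha2. In these 4 runs, of 3 wide peaks each, 1 peak, at Hspa8, was found again in EpiLC, against 27.1% of all wide peaks. Protein-coding genes with a wide peak at an end were shorter, with a median annotated length of 14239 bp, than those with a narrower peak (18683 bp) and all protein-coding genes (17329 bp).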

How the data were processed

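Pcbp1 ChIP-seq was made in naive cells and EpiLC of the E14 Tg2a line, with 1 ChIP and 1 input library per condition. Tools listed in the submitters' processing notes are MACS2, Bowtie2, fastp and Picard, with the build GRCm38 (mm10) and no versions, roles or order. The authors deposited 1 peak list per condition, called on a single ChIP library. The caller's control is not stated in any source used here. The deposited fold is a ratio of pileup to the caller's background at the summit. Each peak has a −log10 p-value and a −log10 q-value from the authors' caller, with a minimum −log10 q of 2.02 in each list. The authors' integer score column was not used, and the other deposited column used gives the summit's distance from the peak start.

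From the fold and −log10 p, a whole-number pileup and a background were solved (tolerance 0.001) for 100% of Naive and 99.97% of EpiLC peaks. The lowest background of a list, 4.004 in Naive and 7.43 in EpiLC, was taken as its genome-wide value, since no source used here gives read totals. Folds carry 95% Poisson intervals and shares 95% exact binomial (Clopper-Pearson) intervals. Both cover counting error only.

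Overlap meant at least 1 bp, and where several EpiLC peaks overlapped, the highest fold was used. Genes and promoters came from RefSeq tables of GRCm38.p6 without a genome. Gene lists held 14 sets. The members and lists were chosen with earlier results of these data known. The limit on background, the 500 bp, 12.5 kb and 120 kb windows, the steps of width, the view of gene starts and the printed promoters were chosen after seeing the data. Genes were named by rule: the 10 widest peaks, the 10 of highest Naive or EpiLC fold, up to 10 with a wide EpiLC partner, those at listed genes, and 3 on each side of the 800 bp limit. Some further genes at small RNAs, runs and loci were named after their values were seen. Alternatives are given in the closing section. The code was tested on simulated data. The tools were matplotlib 3.10.9, scipy 1.17.1, pandas 2.3.3 and numpy 2.4.6 under Python 3.11.15.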

Additional observations from a re-analysis of the deposited data

Results flagged for a closer look

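Outside the chromosomes of the rule the Naive list held 24 more peaks of 800 bp or wider, which the comparisons above did not use. Of these, 18 lay on the unplaced sequence JH584304, 4 on the Y chromosome, 1 on the mitochondrial genome and 1 on GL456392. Those on JH584304 reached 5922 bp with folds of 2.03 to 4.04 on a background 19.3 to 53.7 times the genome-wide value, and those on the Y had folds of 2.27 to 5.01.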

How the results depend on the processing

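Of 29 alternatives to the reported values, 16 left the value within its counting interval and 13 moved it. None of these results has a test. The share of wide peaks found in EpiLC was 21.3% by summits within 250 bp, 23.3% with EpiLC peaks of −log10 q of at least 5 and 33.0% for peaks of 1000 bp or wider. The narrower share was 11.8% with overlap of at least 50% of the shorter peak, 11.6% by summits, 10.4% with EpiLC and 14.3% with Naive peaks of −log10 q of at least 5, and 16.8% when weighted to the fold bands of the wide peaks. The share of summits at a gene end was 32.1% for wide and 26.1% for narrower peaks within 500 bp, and 46.9% and 39.9% within 3000 bp. The median Naive fold of narrower peaks was 4.80 at a −log10 q of at least 5. Leaving out peaks of high background, an alternative chosen after seeing the data, moved no result beyond its interval. In each setting run for both, wide peaks had the higher share. No paired analysis was possible because each condition had 1 ChIP library and no test was made. The depth limits what can be called: a peak of low fold may pass the threshold in 1 library and miss it in the other, and the genome-wide background differed (4.004 and 7.43).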

Other observations

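In the EpiLC list 62 of 3432 peaks were 800 bp or wider, against 808 of 12046 in the Naive list. Called width depends on the caller's threshold, and the genome-wide background differed (4.004 and 7.43), so these counts do not compare the states. Of the 62 EpiLC peaks, 33 did not lie on a wide Naive peak. Several were strong. At Hexim1 a 924 bp EpiLC peak had a fold of 18.6 over a 762 bp Naive peak of 15.1, and in Tcf7l2, a Wnt-responsive transcription factor, an 852 bp EpiLC peak had 14.1 over a 542 bp Naive peak of 7.99. At Pdk2 a 1075 bp EpiLC peak had 8.54 over a 742 bp Naive peak of 13.9. In Sall4, a zinc finger factor of stem cells, a 1188 bp EpiLC peak had 7.06 and lay on the 799 bp Naive peak that misses the rule by 1 bp.

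The 10 without any Naive peak included developmental genes. Pax7 had a 974 bp peak at 4.82 and Hoxc8 an 867 bp peak at 3.22. The widest EpiLC peak of all, 1460 bp with a fold of 4.65, lay nearest Car4 and also had no Naive peak. These genes were named after their values were seen.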
